A study of Mus musculus with 9 samples.

Results

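The genes Cxcl9, Cxcl10, Ccl5, Cxcl1, Ccl2, Ccl7, Cxcl12, Cxcl16 and Cx3cl1 encode chemokines that tumour cells and stroma can release. They were taken by symbol from the feature table, in which all 9 were found among 32286 features. They were measured by 5′ single-cell RNA sequencing of 9 primary mammary tumours, 3 of each genotype: WT, Kmt2c KO and Kmt2d KO. All tumours grew from 168FARN, a mouse mammary carcinoma line, injected into the mammary fat pads of female Balb/c mice that were bought young. Balb/c hosts keep their immune cells, and the sources used here do not give the age at collection. The KO lines were made with Cas9 and 3 guide RNAs against the first exon and were sorted as pools, not clones. Each genotype was 1 line, so that the 3 tumours replicate the mouse and not the knockout. Tumour cells carried a histone H2B-mCherry transgene, H2BMc, which the matrix holds as a feature of its own.

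Chemokines guide leukocytes along gradients through G protein-coupled receptors. Cxcl9 and Cxcl10, which interferons induce, draw T cells and natural killer cells through Cxcr3, and Ccl5 draws T cells and monocytes. Ccl2 and Ccl7 draw monocytes through Ccr2, and Cxcl1 draws neutrophils through Cxcr2. Cxcl12 binds Cxcr4 and Ackr3, and it is best known from stromal cells that retain leukocytes and progenitors. Cxcl16 and Cx3cl1 are made as transmembrane proteins that proteases can shed, and their receptors are Cxcr6 and Cx3cr1.

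Several of these genes lie near each other in mm10. Cxcl9 (chr5:92321331-92328079) and Cxcl10 (chr5:92346638-92348889) stood 18558 bases apart, both on the minus strand. Cxcl1 lay on the same chromosome (chr5:90891245-90893121, plus strand). Ccl2 (chr11:82035577-82037452) and Ccl7 (chr11:82045712-82047525) were 8259 bases apart, and Ccl5 (chr11:83525778-83530518) and Cxcl16 (chr11:70454389-70459984) were on the same chromosome. Cxcl12 was at chr6:117168535-117181368 and Cx3cl1 at chr8:94772180-94782427. Intervals cover the whole gene, introns included.

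The 250 bases upstream of the start are shown for 4 genes: the interferon-induced neighbours Cxcl9 and Cxcl10, the neutrophil ligand Cxcl1 and the tumour cell ligand Cx3cl1. They are RefSeq sequence (GRCm38.p6, the mm10 assembly), 5′ to 3′ on the gene's strand, with matches to 3 searched motifs in capitals. Promoters of 5 of the 9 genes were matched in the table, and that of Cxcl12, not shown, held none of the 3 motifs. The intervals are chr5:92328080-92328329 for Cxcl9, chr5:92348890-92349139 for Cxcl10, chr5:90890995-90891244 for Cxcl1 and chr8:94771930-94772179 for Cx3cl1.
Cxcl9: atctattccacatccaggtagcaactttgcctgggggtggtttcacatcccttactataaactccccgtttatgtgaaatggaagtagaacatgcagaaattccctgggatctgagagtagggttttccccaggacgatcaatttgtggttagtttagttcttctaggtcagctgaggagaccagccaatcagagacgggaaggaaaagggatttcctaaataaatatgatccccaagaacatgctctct
Cxcl10: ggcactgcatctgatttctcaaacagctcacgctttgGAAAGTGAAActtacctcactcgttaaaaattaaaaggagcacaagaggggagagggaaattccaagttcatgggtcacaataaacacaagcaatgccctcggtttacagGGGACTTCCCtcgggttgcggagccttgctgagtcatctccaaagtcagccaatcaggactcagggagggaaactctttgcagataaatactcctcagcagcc
Cxcl1: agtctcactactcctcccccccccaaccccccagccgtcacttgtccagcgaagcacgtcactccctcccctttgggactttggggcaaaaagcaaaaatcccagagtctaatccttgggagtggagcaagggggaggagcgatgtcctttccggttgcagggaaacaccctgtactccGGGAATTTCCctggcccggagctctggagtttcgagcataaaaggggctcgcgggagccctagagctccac
Cx3cl1: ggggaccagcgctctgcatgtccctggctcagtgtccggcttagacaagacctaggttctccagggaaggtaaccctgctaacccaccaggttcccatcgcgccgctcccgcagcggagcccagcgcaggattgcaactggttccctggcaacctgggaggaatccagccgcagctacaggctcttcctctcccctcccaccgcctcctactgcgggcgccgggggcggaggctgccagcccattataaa

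The motifs searched on both strands were the core of the interferon-stimulated response element (GAAA, any 2 bases, GAAA), the interferon gamma activated site (TTCNNNGAA) and the kappa B site (GGGA, any base, TT, any base, CC). The Cxcl10 sequence held GAAAGTGAAA from 213 to 204 bases before the start and GGGACTTCCC from 103 to 94 bases before it. The Cxcl1 sequence held GGGAATTTCC from 71 to 62 bases before the start. The Cxcl9 and Cx3cl1 sequences held none of the 3 in these windows. Of 32851 mouse promoters of the same length, 2.98% held the response element core, 7.02% the activated site and 0.980% the kappa B site. A match describes the letters alone.

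The matrix held 89147 barcodes, of which 58645 cells passed the filters, 939 to 2380 per WT library and 5997 to 14525 per KO library. Barcodes lost to the limit on mitochondrial counts made up 11.6 to 33.8% in WT and 7.78 to 17.6% in KO libraries. Kmt2d KO library 3 was shallow, with a median of 2110 UMIs per cell against 6642 to 13754 in the other 8. Barcode sequences shared with another library were found in 3819 kept cells. Small edits of the first exon need not lower UMI counts, and in tumour cells neither target separated its KO from WT by a lower level. Kmt2c was at 42.9 to 58.3 CPM (UMIs per 1000000 UMIs) in Kmt2c KO and 48.6 to 49.2 in WT, and Kmt2d was at 24.9 to 31.8 in Kmt2d KO and 14.2 to 21.7 in WT. The counts therefore do not check the labels. Kmt2d KO library 2 held the highest Cxcl9, Cxcl10 and Ccl5 of its group in tumour cells, endothelial cells and macrophages. In tumour cells it stood apart from the other 2 for all 3 genes, and in endothelial cells and macrophages it did so for Cxcl9 and Ccl5, whereas for Cxcl10 Kmt2d KO library 3 lay between the others. Single cells carried part of this: 1 macrophage held 29 of 34 Cxcl10 UMIs of library 3, which without it was at 46.7 CPM, and 1 endothelial cell held 13 of 16 Ccl5 UMIs of library 2.

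Cells were assigned by markers, with no chemokine gene used. Tumour cells held at least 1 UMI of H2BMc and none of Ptprc, Pecam1 or Cdh5, which gave 15235 cells, 335 to 3142 per library. Gates gave 751 macrophages (32 to 189 per library), 383 endothelial cells (28 to 61), 369 T cells and 168 fibroblasts. Libraries with fewer than 10 cells of a class were left out, which kept 8 libraries for T cells and 6 for fibroblasts (3 Kmt2c KO, Kmt2d KO libraries 1 and 2, and WT library 1). The stromal gates used their own markers, so these shares describe the classes and test nothing: Pecam1 was found in 93.7% of endothelial cells, C1qb in 72.4% of macrophages, Col1a2 in 97.6% of fibroblasts and Cd3e in 72.9% of T cells. Krt8, which the tumour cell gate did not use, was found in 79.3% of tumour cells. The fibroblast marker Pdgfra was also found in 52.3% of tumour cells. Of kept cells, 70.7% entered no class, so that the classes are strict samples of each type. Levels below are CPM of the UMIs summed over the cells of a class in 1 library, and they are compared between classes or genotypes within a gene.

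Each chemokine had its own order of sources among the cell classes. Cxcl9 and Cxcl16 were almost absent from tumour cells, Ccl2, Ccl7, Cxcl12 and Cxcl1 were highest in fibroblasts, and Cx3cl1 was highest in tumour cells. The sources were compared with tumour cells in edgeR with the library as a block. Of 9 members, 8 differed between endothelial and tumour cells, 8 between macrophages and tumour cells, 9 between fibroblasts and tumour cells, and 5 between T cells and tumour cells. Most genes differ between cell types: of 6223 genes tested, 68.1% were called for endothelial cells, 73.3% for macrophages, 52.8% for fibroblasts and 65.4% for T cells, so that such shares alone say little about the members. The log2 fold change of the median gene lay between -0.33 and -0.09 in these 4 comparisons.

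Cxcl9 was highest in endothelial cells, fibroblasts, mural cells and macrophages. Its mean level was 1262 ± 1434.6 CPM in endothelial cells (s.d., n = 9 libraries), 1032 ± 967 in fibroblasts (n = 6), 853 ± 687 in mural cells (n = 5) and 643 ± 530 in macrophages (n = 9), and these 4 overlapped widely. Genotypes were mixed unevenly: fibroblasts kept 1 WT library, at 0 CPM, and mural cells no Kmt2d KO library. Endothelial cells exceeded macrophages in every Kmt2c KO library, Kmt2d KO library 2 and WT library 1. Macrophages were the higher in the rest. T cells were at 12.6 ± 20.2 CPM (n = 8) and tumour cells at 2.25 ± 2.59 (n = 9). Endothelial cells exceeded tumour cells by 8.81 ± 0.35 (log2 fold change ± s.e.) and macrophages by 8.60 ± 0.36. With every cell thinned to 1000 UMIs, Cxcl9 was found in 0.263% of tumour cells and 0.818% of T cells, which should lack it, and the T cell value rests on 9 UMIs in 8 libraries. Median depths were 11428 UMIs in tumour cells and 1256 in T cells. Whether tumour cells made Cxcl9 was not tested.

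Cxcl10, from the neighbouring gene, was spread more evenly. Means were 332 ± 226 CPM in macrophages, 280 ± 272 in fibroblasts, 159 ± 178 in endothelial cells and 63.6 ± 59.4 in tumour cells. The first 3 overlapped within their spread. Macrophages exceeded tumour cells by 2.53 ± 0.34, fibroblasts by 1.62 ± 0.43 and endothelial cells by 1.03 ± 0.36 (adjusted p = 0.0106). This call did not hold without Kmt2c KO library 1 (adjusted p = 0.0623) or Kmt2d KO library 3 (0.101). It turned round in the WT libraries alone, where endothelial cells were the lower (log2 fold change of -3.54, adjusted p = 1.71e-06). The fibroblast value did not pass with the gate without clusters (0.15, adjusted p = 0.715).

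By level, Ccl5 was highest in dendritic cells, T cells and macrophages, and it was also found in tumour cells. Its highest mean was 3235 ± 2300 CPM in dendritic cells (n = 6), which were not tested. Means were 678 ± 553 CPM in T cells, 419 ± 372 in macrophages, 106 ± 96.0 in tumour cells and 20.6 in endothelial cells. T cells exceeded tumour cells by 2.59 ± 0.33 and macrophages did so by 2.00 ± 0.28, while endothelial cells were lower (log2 fold change of -2.51). T cells and macrophages overlapped within their spread.

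The monocyte ligands Ccl2 and Ccl7 were led by fibroblasts. Ccl2 averaged 1342 ± 178 CPM in fibroblasts, 301 ± 185 in macrophages, 259 ± 90.5 in tumour cells and 129 ± 163 in endothelial cells. Macrophages and tumour cells did not differ beyond their spread (0.12 ± 0.34, adjusted p = 0.767; 0.90, adjusted p = 0.0291 in Kmt2d KO libraries alone), whereas fibroblasts exceeded tumour cells by 2.16 ± 0.38. That lead did not pass where fibroblasts were gated by markers without clusters (0.36, adjusted p = 0.309). Ccl7 averaged 651 ± 226 CPM in fibroblasts, 338 ± 260 in macrophages, 48.5 ± 21.2 in tumour cells and 3.46 in endothelial cells. Fibroblasts exceeded tumour cells by 3.65 ± 0.29 and macrophages did so by 2.66 ± 0.25.

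Cxcl1 and Cxcl12 were highest in fibroblasts and also present in tumour cells, and Cxcl12 in endothelial cells too. Cxcl1 averaged 449 ± 525 CPM in fibroblasts and 87.7 ± 71.4 in tumour cells, and macrophages were lower than tumour cells (log2 fold change of -2.67). The s.d. of Cxcl1 in fibroblasts exceeded its mean, and in Kmt2c KO library 1 a single fibroblast held 49 of 57 UMIs. Cxcl12 averaged 781 ± 370 CPM in fibroblasts, 159 ± 58.8 in endothelial cells, 110 ± 22.2 in tumour cells and 5.81 in macrophages. Fibroblasts exceeded tumour cells by 2.64 ± 0.20, and endothelial cells exceeded them by 0.44 ± 0.18 (adjusted p = 0.0279). The endothelial value did not pass without WT library 1 (adjusted p = 0.116) or 3 (0.0515) or Kmt2d KO library 2 (0.0611), nor in Kmt2c KO (0.3797) or Kmt2d KO (0.546) libraries alone. The fibroblast lead in Cxcl1 (2.19 ± 0.55) did not pass with the gate without clusters (0.27, adjusted p = 0.512) or in Kmt2c KO libraries alone (1.18, adjusted p = 0.0956).

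The transmembrane chemokines had opposite sources. Cxcl16 averaged 483 ± 123 CPM in dendritic cells (n = 6, not tested), 416 ± 144 in macrophages, 61.8 ± 38.1 in fibroblasts and 0.389 ± 0.192 in tumour cells. Macrophages exceeded tumour cells by 9.87 ± 0.20. Cx3cl1 averaged 83.4 ± 19.2 CPM in tumour cells, 36.1 ± 28.1 in fibroblasts, 24.0 ± 24.97 in endothelial cells and 3.62 in macrophages. It was lower than in tumour cells in fibroblasts (log2 fold change of -1.49) and in endothelial cells (log2 fold change of -2.13). The fibroblast value did not pass with the gate without clusters (-0.26, adjusted p = 0.191) or in Kmt2c KO libraries alone (-1.06, adjusted p = 0.157). At 1000 UMIs per cell, Cx3cl1 was found in 8.30% of tumour cells, against 0.650% of macrophages and 0% of T cells. The plot of levels by cell class sets the orders side by side.

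**Figure D1:**
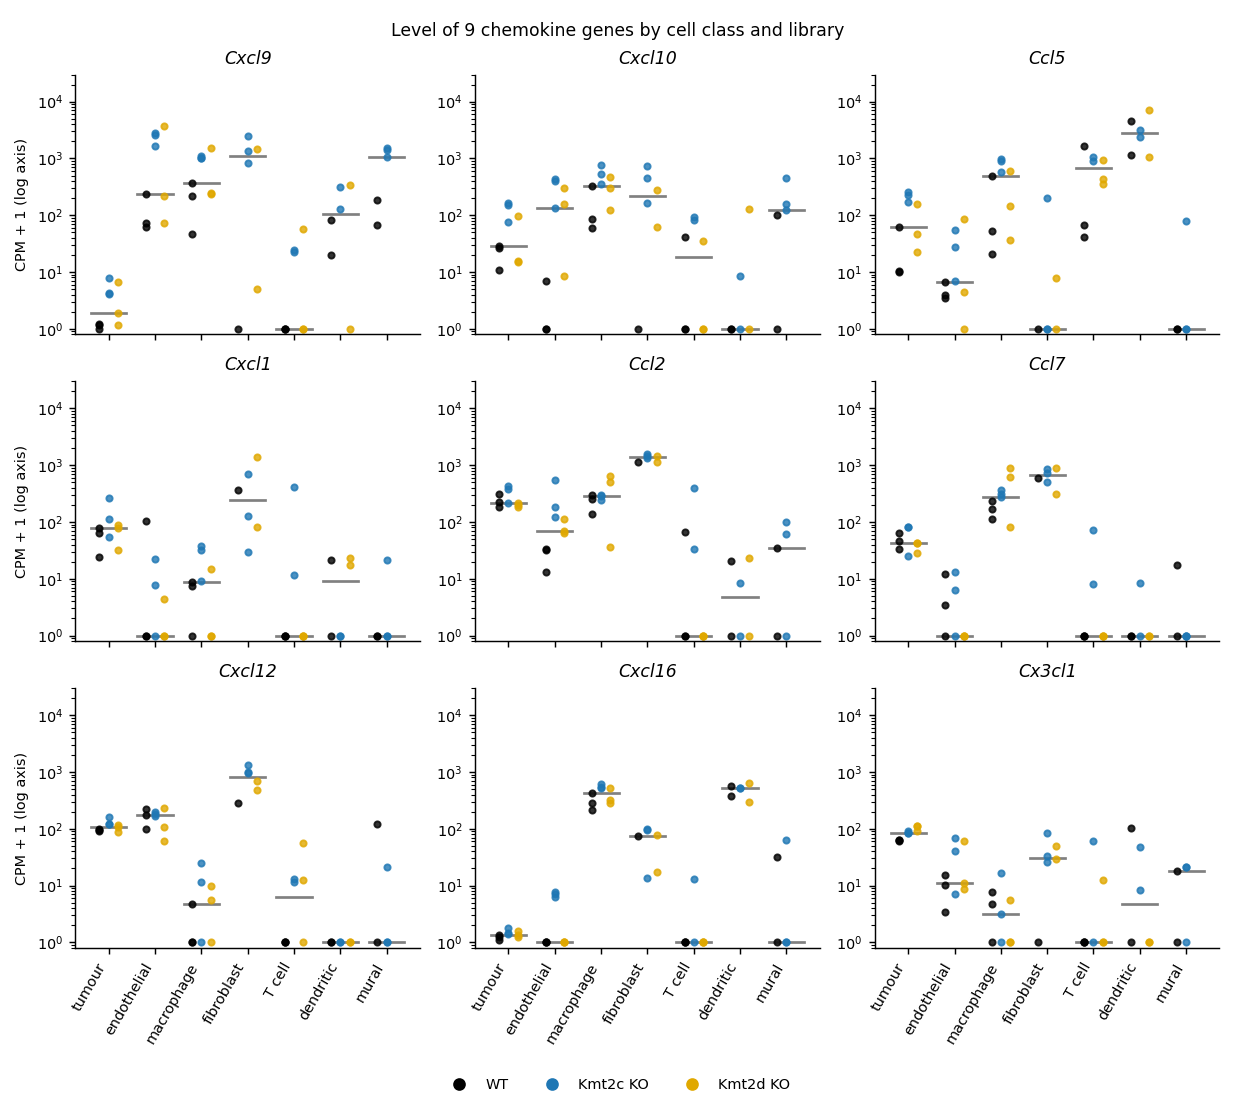
Levels of the 9 chemokines by cell class, as CPM + 1 on a log axis, with a point for each library coloured by genotype and a grey bar at the median of libraries. Cxcl9 and Cxcl16 sit near the floor in tumour cells, whereas Cx3cl1 averages 83.4 CPM there and 3.62 CPM in macrophages.

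A level in CPM does not say how much of a transcript a whole suspension held, which also depends on how many cells of each class were captured. Averaged over libraries, cells with H2BMc gave 42.3% of Cx3cl1 UMIs and 42.3% of Ccl2 UMIs, and cells of tumour clusters without an H2BMc UMI gave a further 52.9% and 52.5%. For Cxcl9 these shares were 5.40% and 10.96%, with 28.0% from endothelial cells and 22.3% from macrophages. For Cxcl16, macrophages gave 47.2% and dendritic cells 14.9%. Although fibroblasts had the highest Ccl7 level, they gave 3.17% of its UMIs. Of the Ccl5 UMIs, cells with H2BMc gave 29.3% and cells of tumour clusters without an H2BMc UMI 53.1%. Dendritic cells gave 7.23% of them, macrophages 1.84% and T cells 0.705%.

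**Figure D2:**
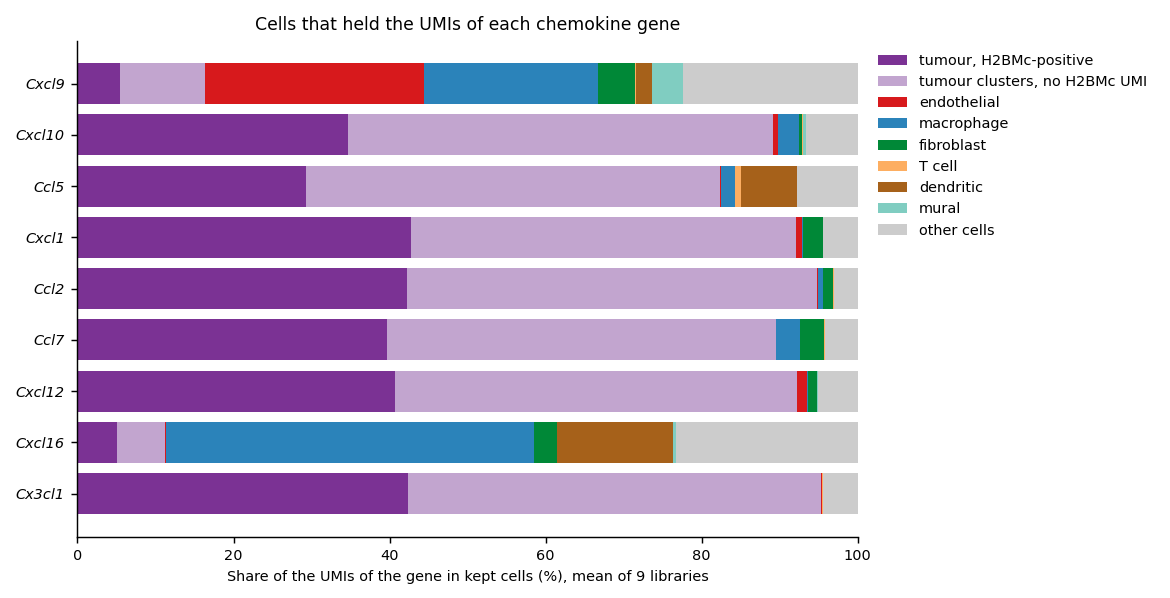
Share of each chemokine's UMIs in kept cells by cell class, in percent, as the mean of 9 libraries in stacked bars. Tumour cells and tumour cluster cells without H2BMc fill most of every bar except those of Cxcl9 and Cxcl16, in which endothelial cells (28.0%) and macrophages (47.2%) lead.

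Between genotypes, Cxcl10, Ccl5, Cxcl12 and Cx3cl1 rose in Kmt2c KO tumour cells against WT. Cxcl9 passed the test too, at a mean of 4.41 CPM, which made 5 of the 9 members called. It passed the low-count filter only through KO libraries, as WT held 4 UMIs of it. In this comparison 19.2% of 13764 genes were called. In Kmt2d KO tumour cells against WT, 1 of 9 rose, Cx3cl1, where 2.03% of genes were called. Kmt2d KO and Kmt2c KO tumour cells differed in 0 of 9 by edgeR (4 at an unadjusted p below 0.05, and 1, Ccl2, by DESeq2). By edgeR 0% of genes were called there (2459 genes at an unadjusted p below 0.05). The Kmt2d KO group was split: without library 2, 6 of 9 differed from Kmt2c KO, with Cxcl10 at a log2 fold change of -3.19 (adjusted p = 0.000131), where 18.6% of all genes were called in that fit.

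Cxcl10 was the more abundant of the interferon-induced pair in tumour cells. It was at 73.7, 148 and 160.0 CPM in libraries 1 to 3 of Kmt2c KO, at 14.6, 97.5 and 13.9 in Kmt2d KO and at 28.2, 10.0 and 25.4 in WT. All Kmt2c KO libraries lay above all WT libraries, and 1 Kmt2d KO library did so too. Against WT it was higher by 2.61 ± 0.73 in Kmt2c KO (adjusted p = 0.0306) and by 0.97 in Kmt2d KO (adjusted p = 0.537). The Kmt2c KO call was lost without Kmt2c KO library 2 or 3 or without any 1 WT library (adjusted p from 0.0741 to 0.118). It was also lost with all cells of tumour clusters, with or without H2BMc (2.15, adjusted p = 0.129), and DESeq2 gave it no adjusted p. At 3000 UMIs per cell, 8.20, 11.5 and 14.3% of Kmt2c KO tumour cells held Cxcl10, against 2.64, 1.78 and 2.74% in WT. Before thinning, the shares did not separate these groups.

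Ccl5 separated in the same libraries. It was at 225, 254 and 169 CPM in Kmt2c KO, at 21.9, 155 and 46.4 in Kmt2d KO and at 8.82, 9.51 and 61.3 in WT. The Kmt2c KO and WT libraries did not overlap, and Kmt2d KO library 2 again stood near Kmt2c KO. Ccl5 rose by 3.05 ± 0.81 in Kmt2c KO (adjusted p = 0.0256), and the difference in Kmt2d KO was 1.47 (adjusted p = 0.376). The Kmt2c KO call did not hold without library 2 (adjusted p = 0.0693) or 3 (0.0518) of that group, nor without WT library 1 (0.0908) or 2 (0.0976), nor with all cells of tumour clusters (2.26, adjusted p = 0.0772). At 3000 UMIs per cell, 14.6, 14.6 and 12.2% of Kmt2c KO tumour cells held Ccl5, against 1.20, 1.90 and 3.95% in WT.

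Cxcl9 was called in tumour cells at a very low level. It was at 3.13, 6.85 and 3.25 CPM in Kmt2c KO, at 0.175, 5.58 and 0.860 in Kmt2d KO and at 0, 0.155 and 0.224 in WT. These were 361 UMIs over Kmt2c KO, 189 over Kmt2d KO and 4 over WT, a ratio of Kmt2c KO to WT of 33.9 (95% counting interval 13.1 to 125). The fitted difference was 5.05 ± 1.40 (adjusted p = 0.0300), and it did not hold without Kmt2c KO library 2 (adjusted p = 0.0774) or 3 (0.0538) or any 1 WT library (0.0852 to 0.108), with all cells of tumour clusters (0.0837) or with thinned cells (0.119). The source of these UMIs was not tested.

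Markers of other cells moved with the genotype in these sums. All 10 macrophage markers were found in H2BMc-positive cells, and their summed level was 25.8 to 34.3 CPM in Kmt2c KO, 16.2 to 21.9 in Kmt2d KO and 17.5 to 19.8 in WT. The summed level of Krt8 and H2BMc was 374 to 491 CPM in Kmt2c KO, 416 to 580 in Kmt2d KO and 618 to 672 in WT. Neutrophil markers were low but also separated, at 0.717 to 1.27 CPM in Kmt2c KO and 0.112 to 0.464 in WT. The part of these in the tumour cell differences was not tested. Median depth was also lower in Kmt2c KO tumour cells, 8469 to 11390 UMIs per cell, than in WT, 13514 to 23820.

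Cx3cl1, which anchors Cx3cr1-bearing leukocytes, was the only member called in both KO groups. It was at 82.3, 89.0 and 83.03 CPM in Kmt2c KO, at 109, 89.2 and 112 in Kmt2d KO and at 62.7, 59.7 and 63.5 in WT. Every KO library lay above every WT library, with little spread in any group. The rise was 0.46 ± 0.10 in Kmt2c KO (adjusted p = 0.0141) and 0.71 ± 0.10 in Kmt2d KO (adjusted p = 0.00703). The Kmt2d KO call held in all 20 alternatives run, with an adjusted p of at most 0.0467, and the Kmt2c KO call was lost without WT library 1 (adjusted p = 0.0535) or 2 (0.0553). Before thinning, the share of cells with Cx3cl1 was 45.4 to 52.7% in Kmt2c KO and 50.8 to 66.9% in WT. At 3000 UMIs per cell the order turned, with 21.9 to 22.7% in Kmt2c KO, 22.7 to 29.2% in Kmt2d KO and 16.7 to 17.7% in WT.

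Cxcl12 rose by a small amount in Kmt2c KO tumour cells. It was at 121, 159 and 119 CPM in Kmt2c KO, at 86.9, 115 and 107 in Kmt2d KO and at 90.2, 97.8 and 93.9 in WT. Kmt2c KO lay above WT in all libraries, and Kmt2d KO spanned the WT range. The rise was 0.51 ± 0.14 (adjusted p = 0.0329), against 0.10 in Kmt2d KO (adjusted p = 0.782). It was lost without Kmt2c KO library 2 or any 1 WT library (adjusted p from 0.0762 to 0.111), and with cells thinned to 3000 UMIs (adjusted p = 0.367). At that depth 23.3 to 28.9% of Kmt2c KO and 19.5 to 25.9% of WT tumour cells held it, so the shares overlapped.

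The other members were not called in tumour cells by the main fit. Between the KO groups, Ccl2 was lower in Kmt2d KO than in Kmt2c KO by DESeq2 (-0.81, adjusted p = 0.0150). By edgeR this passed without Kmt2c KO library 1 (-1.07, adjusted p = 0.0357) or Kmt2d KO library 2 (-0.86, adjusted p = 0.0340). Ccl2 was at 214, 387 and 421 CPM in Kmt2c KO, 199, 211 and 183 in Kmt2d KO and 224, 310 and 185 in WT, a difference of 0.50 ± 0.24 for Kmt2c KO (adjusted p = 0.161) that was called only without Kmt2c KO library 1 (adjusted p = 0.0190). Its neighbour Ccl7 was at 23.9, 79.2 and 80.5 CPM in Kmt2c KO, 42.0, 42.2 and 27.5 in Kmt2d KO and 32.3, 64.2 and 44.4 in WT (0.37 ± 0.40, adjusted p = 0.551). In both genes Kmt2c KO libraries 2 and 3 lay above the WT range, while library 1 lay within it for Ccl2 and was the lowest of all 9 libraries for Ccl7. Cxcl1 was at 53.3, 111 and 264 CPM in Kmt2c KO, 87.8, 78.7 and 31.0 in Kmt2d KO and 23.2, 76.5 and 64.2 in WT (1.35 ± 0.58, adjusted p = 0.130), and it was called without Kmt2c KO library 1 (adjusted p = 0.0497) and without the low-count filter (0.0241). Cxcl16 did not exceed 0.753 CPM in any library (1.24 ± 0.53, adjusted p = 0.125), and it was called with all cells of tumour clusters (1.83, adjusted p = 0.0246). The plot of tumour cell levels shows all 9 genes.

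**Figure D3:**
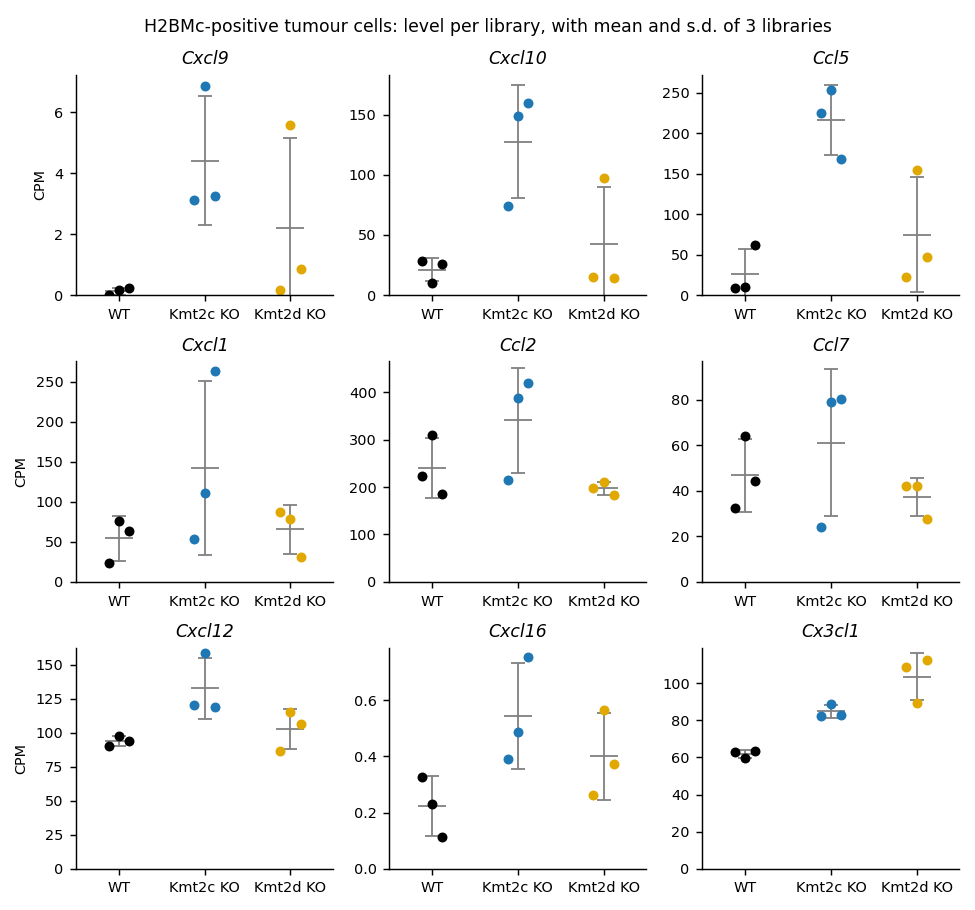
Levels of the 9 chemokines in H2BMc-positive tumour cells, in CPM on linear axes, with a point for each library and the mean ± s.d. of 3 libraries per genotype. Kmt2c KO libraries lie above all WT libraries for Cxcl10, Ccl5, Cxcl12 and Cx3cl1, and a single Kmt2d KO library lies near them for Cxcl10 (97.5 CPM) and Ccl5 (155 CPM).

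In endothelial cells, Cxcl9, Cxcl10 and Ccl2 rose in Kmt2c KO against WT, which was 3 of the 5 members tested, where 7.71% of 5020 genes were called. Cxcl10, Ccl2 and Cx3cl1 passed the low-count filter only through KO libraries, so the 5 tested were partly picked by the levels compared. In Kmt2d KO against WT, 0 of 5 were called by edgeR (3 at an unadjusted p below 0.05, and DESeq2 gave none of them an adjusted p), where 0% of genes were called (532 at an unadjusted p below 0.05). Between Kmt2d KO and Kmt2c KO, 0 of 5 were called by edgeR (1 at an unadjusted p below 0.05, 0 by DESeq2), where 0.0598% of genes were called. Without Kmt2d KO library 2, 4 of 5 differed between the KO groups, where 5.25% of all genes were called in that fit.

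Endothelial Cxcl9 was at 1648, 2565 and 2836 CPM in Kmt2c KO, at 71.6, 3653 and 217.0 in Kmt2d KO and at 60.2, 70.8 and 236 in WT. Kmt2c KO lay clear of WT, and Kmt2d KO held both the highest library and others within the WT range. The rise in Kmt2c KO was 4.26 ± 0.99 (adjusted p = 0.0176), and did not hold without Kmt2c KO library 3 (adjusted p = 0.0592) or WT library 1 (0.0857) or 2 (0.0830). DESeq2 gave it no adjusted p. Cxcl9 was found in 73.3 to 91.4% of endothelial cells in Kmt2c KO, 25 to 80.6% in Kmt2d KO and 18.6 to 37.5% in WT.

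Endothelial Cxcl10 was nearly absent from WT, and it passed the low-count filter only through KO libraries. It was at 405, 131 and 434 CPM in Kmt2c KO, at 7.54, 295 and 156 in Kmt2d KO and at 6.02, 0 and 0 in WT. Over the group these were 158 UMIs in Kmt2c KO, 103 in Kmt2d KO and 2 in WT, ratios to WT of 169.5 (95% counting interval 46.2 to 1412) and 75.1 (20.3 to 628). The Kmt2c KO rise passed the test (fitted 7.13 ± 1.08, adjusted p = 0.00216), also with each library left out in turn, and was lost where 1 more marker was asked of each cell (2.61, adjusted p = 0.0772). The Kmt2d KO difference did not pass (5.98 ± 1.19, adjusted p = 0.0652), but it did without Kmt2d KO library 1 (6.56, adjusted p = 0.000207) or 2 (5.18, adjusted p = 0.0228). It also passed without the low-count filter (adjusted p = 1.5e-28), in a fit whose p-values did not follow the spread between libraries. Cxcl9 in Kmt2d KO also passed without Kmt2d KO library 1 (3.95, adjusted p = 0.00951). The share of endothelial cells with Cxcl10 was 31.4 to 44.4% in Kmt2c KO, 4.55 to 45.2% in Kmt2d KO and 0 to 2.33% in WT.

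Endothelial Ccl2 was called in Kmt2c KO against WT, after it had passed the low-count filter only through KO libraries. It was at 179, 539 and 121 CPM in Kmt2c KO, at 64.0, 113 and 67.8 in Kmt2d KO and at 33.1, 31.1 and 12.4 in WT. The 3 groups did not overlap, with Kmt2d KO between the others. The rise in Kmt2c KO was 3.54 ± 0.52 (adjusted p = 0.00189) and was called in all 15 alternatives run, with an adjusted p of at most 0.0224. The 15 include the fits without the low-count filter and without the highest cell, which add no weight. A single cell held 22 of 27 UMIs in Kmt2c KO library 1 and 65 of 103 in library 2. Without the highest cell of each library, an alternative chosen after the data had been seen, the levels were 33.7, 207 and 97.5 CPM in Kmt2c KO, 30.8, 34.3 and 43.4 in Kmt2d KO and 0, 17.4 and 0 in WT. Kmt2c KO and WT still did not overlap, but the KO groups did. The edgeR fit (4.26, adjusted p = 0.00518) took only the gene's own UMIs of that cell from each library. WT, with few UMIs, lost most of them this way, so the larger fold change adds no weight. The differences of Kmt2d KO from WT (1.65, adjusted p = 0.331) and from Kmt2c KO (-1.89 ± 0.46, adjusted p = 0.185) did not pass. That from Kmt2c KO passed without Kmt2d KO library 2 (-2.18, adjusted p = 0.00151), and both passed without the low-count filter.

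Of the remaining members in endothelial cells, Cxcl12 was at 199, 178 and 169 CPM in Kmt2c KO, at 60.3, 231 and 105 in Kmt2d KO and at 223, 99.1 and 171 in WT. The groups overlapped, and the difference of Kmt2c KO from WT was 0.18 ± 0.38 (adjusted p = 0.827). Cx3cl1 was at 39.9, 68.1 and 6.03 CPM in Kmt2c KO, at 7.54, 59.0 and 10.2 in Kmt2d KO and at 9.03, 14.2 and 2.48 in WT (2.20 ± 0.88 for Kmt2c KO, adjusted p = 0.144, and 0.0119 without the low-count filter). Ccl5, Ccl7, Cxcl1 and Cxcl16 fell below the filter on low counts. All 34 Cxcl1 UMIs of WT library 1 were in a single endothelial cell. In endothelial cells the summed macrophage markers overlapped, with 12.1 to 59.8 CPM in Kmt2c KO and 28.3 to 42.1 in WT. The summed mural markers were higher in Kmt2c KO, 625 to 832 against 452 to 538. So were fibroblast markers, 6.64 to 131 against 0 to 6.02. Of the mural markers, Mcam was found in 74.2% of endothelial cells, Abcc9 in 8.88% and Kcnj8 in 8.36%. Rgs5 was found in 1.31%, Higd1b in 0.783%, and Notch3 and Cspg4 in 0%. The mural sum therefore need not mark mural cells. The part of these in the endothelial differences was not tested.

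In macrophages, Cxcl9, Cxcl10 and Cxcl16 rose in Kmt2c KO against WT, 3 of the 6 members tested, where 8.65% of 3687 genes were called. In Kmt2d KO against WT, 0 of 6 were called by edgeR (2 at an unadjusted p below 0.05, 0 by DESeq2), where 0% of genes were called (250 at an unadjusted p below 0.05). Between the KO groups, 0 of 6 were called by edgeR (2 at an unadjusted p below 0.05, 0 by DESeq2), where 0.434% of genes were called. Each of the 3 Kmt2c KO calls was lost in several single-library omissions, which left 0 to 4 members called, where 2.04 to 11.2% of all genes were called.

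Macrophage Cxcl9 was at 1081, 1035 and 1025 CPM in Kmt2c KO, at 235, 1542 and 241 in Kmt2d KO and at 46.2, 217 and 365 in WT. The Kmt2c KO libraries were close together and above WT, and Kmt2d KO libraries 1 and 3 lay within the WT range. The rise was 2.31 ± 0.63 (adjusted p = 0.0329), lost without any 1 Kmt2c KO library or WT library 1 or 2 (0.0613 to 0.116), with DESeq2 (0.131) and without the 5% deepest cells (0.0737). Cxcl10 was at 347, 524 and 749.9 CPM in Kmt2c KO, at 124, 463 and 304 in Kmt2d KO and at 85.9, 59.2 and 330.4 in WT. Kmt2c KO library 1 lay only just above WT library 3, and the rise was 1.75 ± 0.50 (adjusted p = 0.0408), lost without Kmt2c KO library 2 or 3 or WT library 1 or 2 (0.104 to 0.204), with DESeq2 (0.169), with 1 marker more (0.0697) and without the 5% deepest cells (0.0887).

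Cxcl16, the Cxcr6 ligand, was at 516, 623 and 553 CPM in Kmt2c KO, at 322, 519.8 and 286 in Kmt2d KO and at 211, 421 and 289 in WT. Kmt2c KO lay above WT, and the rise was 0.95 ± 0.28 (adjusted p = 0.0427). The share of macrophages with Cxcl16 did not separate, at 41.5 to 60.1% in Kmt2c KO and 44.3 to 51.9% in WT. The call was lost without any 1 Kmt2c KO library or WT library 1 or 3 (adjusted p from 0.0694 to 0.212), with the gate without clusters (0.0717), with 1 marker more (0.0942) and without the 5% deepest cells (0.0965).

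Macrophage Ccl5 was at 565, 957 and 909 CPM in Kmt2c KO, at 143, 605 and 35.8 in Kmt2d KO and at 19.8, 52.6 and 486 in WT. Kmt2c KO lay above WT, whose library 3 stood far from the other 2, and the difference was 2.06 ± 0.75 (adjusted p = 0.101). It passed without WT library 3 (adjusted p = 0.00950), without Kmt2d KO library 2 (0.0166), and without the highest cell of each library (0.0373). Ccl7 was at 274, 307 and 366 CPM in Kmt2c KO, at 612, 887 and 80.4 in Kmt2d KO and at 112, 237 and 167 in WT. Kmt2d KO libraries 1 and 2 were the highest and library 3 the lowest of all 9 (1.70 ± 0.51 against WT, adjusted p = 0.571), and the difference passed without Kmt2d KO library 3 (adjusted p = 0.00796), as did that of Kmt2c KO from WT (0.95, adjusted p = 0.0446). A single macrophage held 66 of 133 Ccl7 UMIs in Kmt2d KO library 1 and another 61 of 157 in library 2. Ccl2 was at 653, 514 and 35.8 CPM in Kmt2d KO, 239 to 294 in Kmt2c KO and 139 to 296 in WT, with the same split of Kmt2d KO (0.91, adjusted p = 0.787). The same cells held 68 of 142 and 43 of 91 Ccl2 UMIs, and without them Ccl2 was at 352 and 284 CPM in these libraries. Cxcl1, Cxcl12 and Cx3cl1 were too low in macrophages to be tested.

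Depth and quality of macrophages moved with genotype. The median was 1607 to 2067 UMIs per cell in Kmt2c KO and 2338 to 3519 in WT, and the median mitochondrial share was 3.35 to 3.87% and 4.34 to 6.17%. Macrophage sums also held other markers, of which the neutrophil markers (55.3 to 88.97 CPM in Kmt2c KO, 26.8 to 50.8 in Kmt2d KO and 33.0 to 52.6 in WT) and the fibroblast markers (16.1 to 81.8 in Kmt2c KO and 0 to 13.2 in WT) were higher in Kmt2c KO than in WT without overlap. The summed endothelial markers were 56.5 to 220 CPM in Kmt2c KO, 13.8 to 141 in Kmt2d KO and 13.2 to 79.8 in WT, and the summed dendritic cell markers were 32.3 to 104, 79.1 to 384 and 184 to 416. Of the neutrophil markers, Csf3r was found in 13.8% of macrophages, S100a8 in 0.399%, S100a9 and Mmp8 in 0.133% and Retnlg in 0%. Of the endothelial markers, Pecam1 was found in 12.1%, Kdr in 6.92% and Flt1 in 2.66%. Tie1, Cdh5 and Egfl7 were found in 0.399% or less, and Cldn5, Emcn and Esam in 0%. These 2 sums therefore need not mark neutrophils or endothelial cells. H2BMc and Krt8 were at 0 by the gate. The part of these in the macrophage differences was not tested. Levels in both classes are set out by library in the plot of endothelial cells and macrophages.

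**Figure D4:**
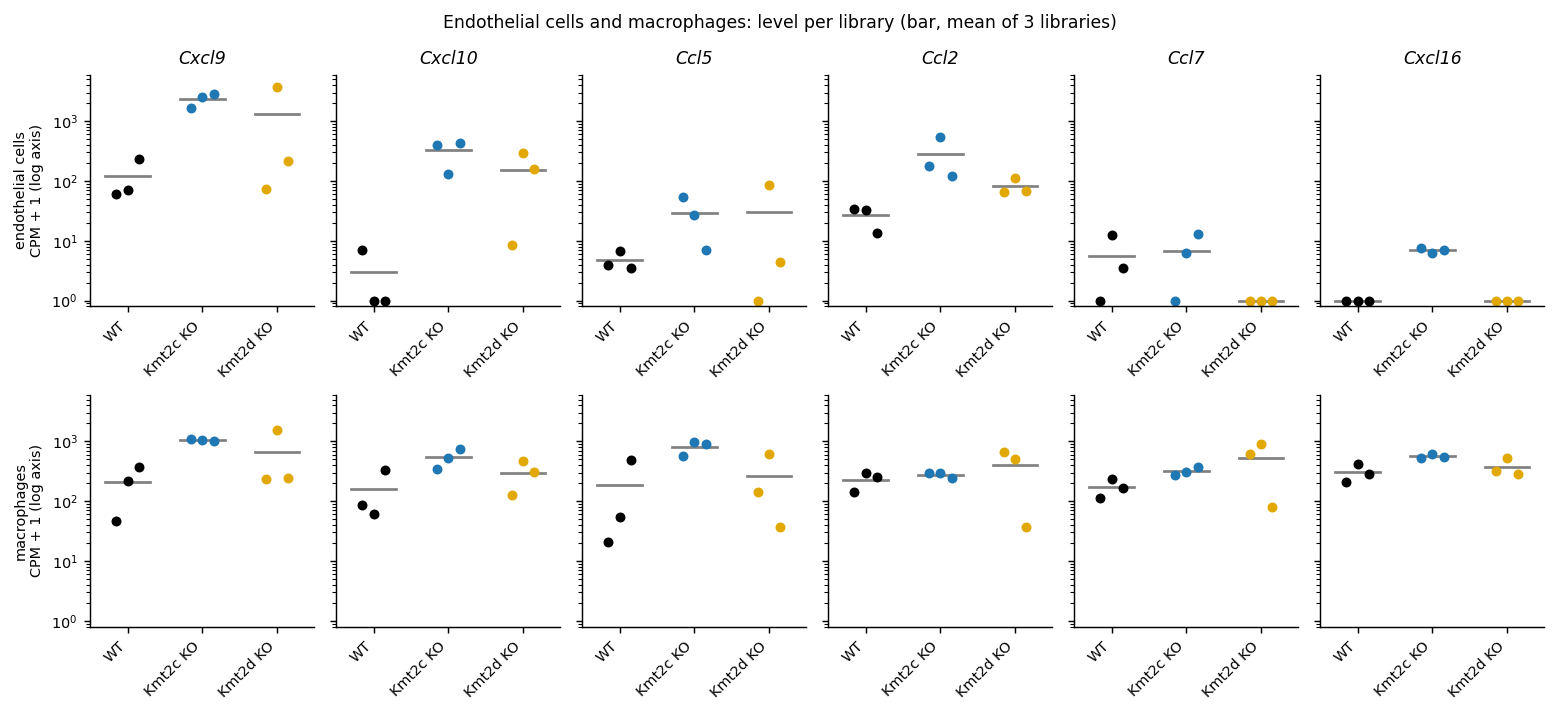
Levels of 6 chemokines in endothelial cells (upper row) and macrophages (lower row), as CPM + 1 on a log axis, with a point for each library and a bar at the mean of 3. Endothelial Cxcl9, Cxcl10 and Ccl2 lie higher in every Kmt2c KO library than in any WT library, and the Kmt2d KO libraries are spread between 71.6 and 3653 CPM for Cxcl9.

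Fibroblasts allowed a comparison of Kmt2d KO with Kmt2c KO only, since WT kept 1 library. Of 8 members tested, 0 were called by edgeR (1 at an unadjusted p below 0.05, 0 by DESeq2), where 2.24% of 3434 genes were called. Ccl2 was at 1561, 1442 and 1313 CPM in Kmt2c KO, at 1465 and 1126 in Kmt2d KO and at 1145 in WT library 1. These libraries lay close together (-0.07 ± 0.40, adjusted p = 0.963), but a single cell held 83 of 126 UMIs in Kmt2c KO library 1, which without it was at 567 CPM. Cxcl12 was at 1301, 952 and 981 CPM in Kmt2c KO, at 480.2 and 689.5 in Kmt2d KO and at 285 in WT. Kmt2c KO lay above the other libraries, a difference that did not pass (-0.80 for Kmt2d KO against Kmt2c KO, adjusted p = 0.462).

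Fibroblast Cxcl9 was at 843, 2520 and 1345 CPM in Kmt2c KO, at 4.03 and 1481 in Kmt2d KO and at 0 in WT library 1. Single cells carried much of it, with 184 of 217 UMIs of Kmt2d KO library 2 and 54 of 85 of Kmt2c KO library 3 in a single fibroblast. Cxcl10 followed, at 161, 448 and 728 CPM in Kmt2c KO, 60.5 and 280 in Kmt2d KO and 0 in WT (-1.32 for Kmt2d KO against Kmt2c KO, adjusted p = 0.364). Cxcl9 was lower in Kmt2d KO by the test without the 5% deepest cells (-3.71, adjusted p = 0.00200), and Cxcl10 without Kmt2c KO library 1 (-1.72, adjusted p = 0.0167). Without the highest cell of each library neither Cxcl9 (-3.12, adjusted p = 0.0886) nor Cxcl10 (-0.45, adjusted p = 0.844) passed. Without Kmt2d KO library 2 the arm was library 1 alone, assumed to vary like the other groups, and the differences were -8.22 for Cxcl9 (adjusted p = 1.1e-05) and -2.77 for Cxcl10 (adjusted p = 0.0171). Markers moved with the groups in these sums: endothelial markers summed to 49.6 to 285 CPM in Kmt2c KO and 6.83 to 16.1 in Kmt2d KO, and fibroblast markers to 15143 to 26372 and 30128 to 43762. Their part in the fibroblast differences was not tested.

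Fibroblast Cxcl1 was at 706, 28.0 and 127 CPM in Kmt2c KO and at 1392 and 81.9 in Kmt2d KO, groups that overlapped (1.40 ± 0.84, adjusted p = 0.522). The value turned on single libraries and cells. Without Kmt2c KO library 1, where a single cell held 49 of 57 UMIs, it was 3.37 (adjusted p = 3.31e-06), and without Kmt2d KO library 2, which left 1 library in that arm, it was 2.29 (adjusted p = 0.0451). Without the highest cell of each library it was 3.32 (adjusted p = 0.0384), and without the 5% deepest cells 2.79 (adjusted p = 0.00751).

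In T cells, Ccl5 was the only member abundant enough to test. It was at 1043 and 907 CPM in libraries 2 and 3 of Kmt2c KO, at 352, 949 and 426.5 in Kmt2d KO and at 65.5, 40.9 and 1641 in WT. WT library 3 was the highest of all and WT libraries 1 and 2, with 1 UMI each, the lowest. It was not called in any contrast by edgeR or DESeq2 (0 at an unadjusted p below 0.05), with differences from WT of 0.58 ± 0.69 in Kmt2c KO (adjusted p = 0.998) and -0.42 in Kmt2d KO (adjusted p = 0.941), and of -1.002 between the KO groups (adjusted p = 0.997). Of 578 genes tested, 0.346%, 0% and 0.519% were called in these 3 contrasts, and 33 genes in Kmt2d KO against WT had an unadjusted p below 0.05. Without WT library 3 the Kmt2c KO difference was 4.29 (adjusted p = 0.00194). Counts of 1 to 46 UMIs per WT library limit what can be said.

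Whether the KO effects differed between cell classes was tested in a joint fit of tumour cells, endothelial cells and macrophages, added after the data had been seen. The effect of Kmt2c KO on Ccl2 was larger in endothelial cells than in tumour cells by 2.94 ± 0.61 (adjusted p = 0.00426), and that on Cxcl10 by 4.89 ± 1.22 (adjusted p = 0.0217). Of 8239 genes, 2.48% were called for this difference. A single endothelial cell held most Ccl2 UMIs of Kmt2c KO library 2. Without Kmt2c KO library 2 the Ccl2 difference did not pass (2.19, adjusted p = 0.132), and that of Cxcl10 did not without Kmt2c KO library 1 or 3 or any 1 WT library (adjusted p from 0.0549 to 0.153).

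For Kmt2d KO, the effect on Cxcl10 was larger in endothelial than in tumour cells by 5.66 ± 1.18 (adjusted p = 0.0460), where 0.085% of genes were called, and the effect on Ccl7 was larger in macrophages by 1.91 ± 0.39 (adjusted p = 0.0231), where 0.17% were called. The Cxcl10 value was lost without Kmt2c KO library 3, Kmt2d KO library 3 or any 1 WT library (adjusted p from 0.0637 to 0.389), and that of Ccl7 without Kmt2d KO library 1 or 2 or any 1 WT library (0.0883 to 0.220). For Kmt2c KO in macrophages 0 members differed by edgeR (1 at an unadjusted p below 0.05, and Cxcl9 was called without Kmt2d KO library 2, adjusted p = 0.0305), where 3.17% of genes were called. No other tool was run for these differences. The Cxcl10 values rest on 2 endothelial UMIs in WT. For Ccl7, single macrophages held a large part of the UMIs in Kmt2d KO libraries 1 and 2, and library 3 was the lowest of all. The plot of fold changes gives the effects in each class.

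**Figure D5:**
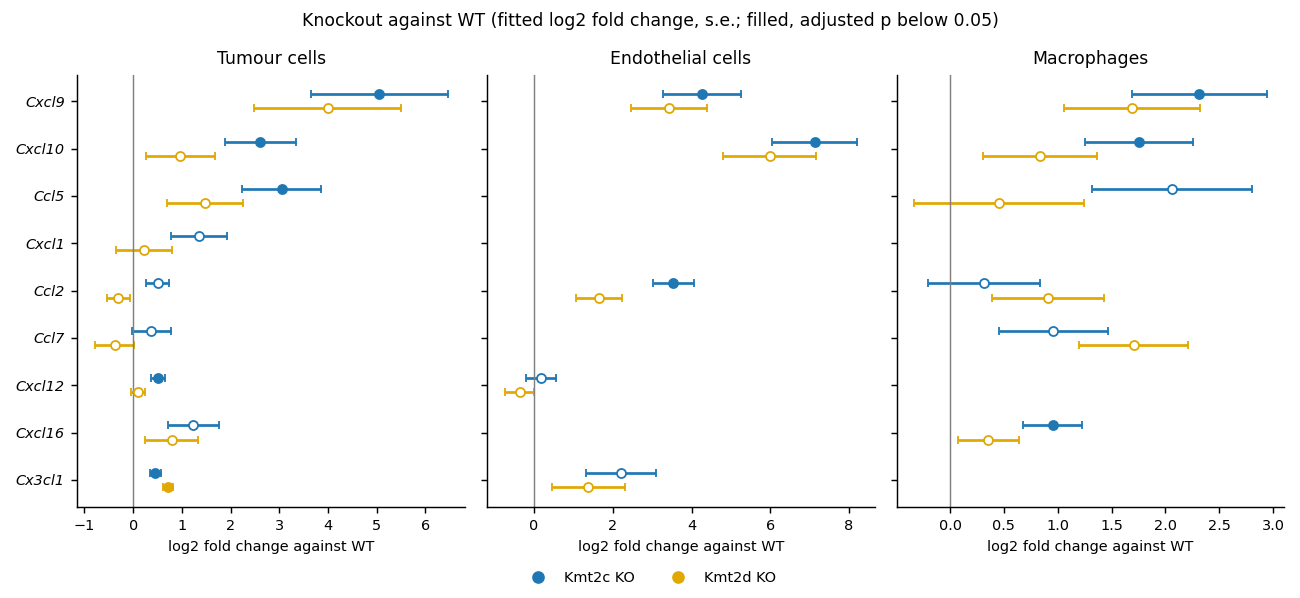
Log2 fold changes ± s.e. of the members in Kmt2c KO and Kmt2d KO against WT in tumour cells, endothelial cells and macrophages, from edgeR, with filled points where the adjusted p was below 0.05. Endothelial Cxcl10 lies farthest from 0 in both KO groups (7.13 in Kmt2c KO and 5.98 in Kmt2d KO), and Cx3cl1 in tumour cells is filled for both KO groups.

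Within tumour cells the members were spread in different ways. At 3000 UMIs per cell, the 5% of tumour cells with the most UMIs of a gene held 31.0 to 41.5% of the Cx3cl1 UMIs and 34.2 to 46.2% of the Cxcl12 UMIs, depending on the library. For Ccl2 they held 51.1 to 67.6%, for Ccl7 68.2 to 100%, for Cxcl1 70.2 to 100%, for Cxcl10 76.1 to 100% and for Ccl5 75.9 to 100%. A share of 100% arises wherever fewer than 5% of cells were positive. Cx3cl1 and Cxcl12 were found at low level in many cells, and Ccl5 and Cxcl10 in few.

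Pairs of genes were also counted within single tumour cells. At 3000 UMIs per cell, Ccl7 was found in 14.3 to 29.8% of Ccl2-positive tumour cells and in 2.45 to 6.39% of Ccl2-negative ones, a higher share in each of the 9 libraries. Cxcl1 was found in 5.83 to 25.5% of Ccl2-positive and 2.15 to 9.21% of Ccl2-negative cells. In Kmt2c KO libraries, Cxcl10 was found in 16.7, 23.6 and 28.8% of Ccl5-positive cells against 6.74, 9.42 and 12.3% of Ccl5-negative ones. Cx3cl1 was found in 14.1 to 28.4% of Cxcl12-positive and 17.1 to 29.5% of Cxcl12-negative cells, ranges that overlapped. For the neighbours Cxcl10 and Cxcl9 the shares were low, with Cxcl9 in 2.48 to 3.11% of Cxcl10-positive Kmt2c KO cells against 0.795 to 1.06% of negative ones, and in Kmt2d KO library 3 in 0% against 0.226%. Cells of a library share its depth and free RNA, so these shares are descriptions.

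Likeness across the 9 libraries was described by Pearson's r of log2(CPM + 1) in tumour cells, over 408 or 409 genes that varied, for libraries that share genotype and depth. The nearest genes to Cxcl10 were Ifit3 (r = 0.986) and Ifit1 (0.982), both interferon-induced, followed by Igf2 (0.977). Oas3 (0.949) and Il15ra (0.945) were nearest to Ccl5. Junb (0.908) and Ptgs2 (0.904) were nearest to Cxcl1, Dnajb1 (0.887) and Cxcl5 (0.854) to Ccl2, and Cxcl5 (0.876) and Fos (0.860) to Ccl7. Ccl8 (0.898) was nearest to Cxcl12 and Hist2h2bb (0.907) to Cx3cl1. In macrophages, over 6867 genes, Fcgr4 (0.970) was nearest to Cxcl9 and Slc3a2 (0.972) to Cxcl16. High r values are easily reached over so many genes: Cxcl12, with 19 UMIs there, had an r of 0.999 with Ptpn14.

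The receptors of these ligands differed in their cells. Cxcr3, which binds Cxcl9 and Cxcl10, averaged 92.8 CPM in T cells and 2.67 in tumour cells, and Cxcr6, the receptor of Cxcl16, averaged 153 in T cells. Ccr2, which binds Ccl2 and Ccl7, averaged 289 CPM in macrophages and 196 in T cells. Cx3cr1 averaged 53.1 CPM in macrophages and 30.3 in T cells. For Cxcl12, Cxcr4 averaged 64.3 CPM in endothelial cells and the scavenging receptor Ackr3 458 in fibroblasts, 118 in endothelial cells and 18.9 in tumour cells. Against tumour cells, 9 of 10 receptors tested were higher and 1, Ackr3, lower in T cells, and 6 were higher and Ackr3 lower in macrophages, where 65.4% and 73.3% of all genes were called. Cxcr2, the receptor of Cxcl1, was at 0 in endothelial cells, macrophages, fibroblasts and T cells, and no neutrophil class was compared.

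Some receptors also differed between genotypes. In Kmt2c KO macrophages, 2 of 5 fell and 0 rose: Ccr2 (log2 fold change of -1.35, adjusted p = 0.00771) and Cx3cr1 (-1.94, adjusted p = 0.0124), the receptors of Ccl2 and Cx3cl1, where 8.65% of all genes were called. In tumour cells, 2 of 7 rose in Kmt2c KO, Cxcr3 (2.70, adjusted p = 0.0389) and Ccr9 (1.84, adjusted p = 0.0305), both at low levels and a share to be read against the 19.2% of all genes called there. In endothelial cells 0 of 2 were called in any contrast.

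Among other chemokines in tumour cells, 3 of 11 rose and 0 fell in Kmt2c KO against WT with a median log2 fold change of 0.57, against 19.2% of all genes called. These were Ccl17 (1.64, adjusted p = 0.0176), Ccl25 (0.45, adjusted p = 0.0101) and Ccl8 (2.26, adjusted p = 0.0494). In macrophages, 1 of 8 rose, Ccl4 (2.78, adjusted p = 0.0226), and 3 fell, where 8.65% of all genes were called: Ccl24 (-3.23, adjusted p = 0.0107), Ccl6 (-1.42, adjusted p = 0.00672) and Ccl9 (-1.26, adjusted p = 0.0117). Ccl11 and Cxcl14 were higher in fibroblasts than in tumour cells by 12.51 and 11.82 on the log2 scale. Of the proteases that act on chemokines, 3 of 5 tested rose in Kmt2c KO tumour cells, against 19.2% of all genes: Mmp3 (3.11, adjusted p = 0.000157), Mmp2 (1.30, adjusted p = 0.0238) and Adam17 (0.37, adjusted p = 0.0342), a sheddase of Cx3cl1. In Kmt2d KO tumour cells Mmp3 was the only 1 of these 5 called (2.10, adjusted p = 0.00318), against 2.03% of all genes.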

How the data were processed

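Suspensions of 9 primary tumours, cleared of dead cells and debris by Percoll, were run on the 10x 5′ platform, and the authors counted and aggregated the libraries with Cell Ranger (7.0.1 and mm10, per the submitters' processing notes). The deposited matrix holds raw UMI counts, whole numbers for each barcode and gene. The sources used here do not say whether aggregation equalised depth. The aggregation table gives each library a genotype letter, and sheet names of the study's comparisons gave C for Kmt2c KO, D for Kmt2d KO and X for WT. Library numbers only name libraries and pair nothing. The matrix held 0 columns of other samples.

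Cells with more than 500 and fewer than 7500 genes and under 15% mitochondrial counts were kept, the study's limits. They were clustered in scanpy 1.11.5 without chemokine genes (2000 variable genes, 30 components, 20 neighbours, Leiden resolution 0.2). Stromal classes were taken from clusters with at most 5% H2BMc-positive and 10% Krt8-positive cells, from cells with at least 3 markers of 1 type (2 for T cells), no H2BMc or Krt8 UMI and no second type. No doublet caller was run, and leaving out the 5% deepest cells served as an alternative. Kmt2c KO library 1 gave 94.6% of cluster 5, and a shallow cluster 4 (median 1456 UMIs) was 71.6% Kmt2d KO library 3. Leaving these clusters out was an alternative for tumour cells.

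UMI counts were summed per library and class, since cells are not replicates; the study itself used a rank test over cells. Sums were tested with edgeR 4.0.16 (R 4.3.3) by glmQLFit and glmQLFTest after filterByExpr and TMM, genotype as factor, with Benjamini-Hochberg adjustment over all genes of a class and a call below 0.05. A contrast needed 2 libraries of at least 10 cells in each group, except where leaving out a library left 1, which was then assumed to vary like the other groups. Sources were tested with library as a block. P-values measure the spread between tumours of 1 line per genotype. Replicate libraries differed beyond counting noise (chi-square per degree of freedom of 19.2 to 174). DESeq2 1.42.0 was an alternative. For shares of positive cells, cells were thinned to 3000 UMIs in tumour cells or 1000 in all classes, and no test was made. Counting intervals are exact, at 95%, and cover counting error only. Counts were simulated with 1 fixed spread for every gene. There edgeR recovered 98.0% of 4-fold and 48.0% of 2-fold changes in tumour cells for Kmt2c KO against WT (13621 genes). In endothelial cells it recovered 98.0% and 32.0%, and in T cells 91.0% and 16.0%. Of the calls, 7.01% were false in tumour cells and 10.8% in T cells. For the endothelial difference between classes it recovered 84.3% and 3.80%. Genes that varied more between tumours are not covered by these values.

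The members are all named in every class, and genes of the fixed lists (other chemokines, receptors, proteases) are named where called or where a member's role needs them. Members, lists and gates were chosen with earlier results of these data known. Columns of the authors' own comparisons were not used. Alternatives covered the count filter, DESeq2, gates, thinning, class sizes and single libraries. A withheld item is not reported here.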

Additional observations from a re-analysis of the deposited data

Results flagged for a closer look

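In 4 cases the effect of a KO differed between cell classes by a test of the difference itself. Of 8239 genes, 2.48% were called for Kmt2c KO in endothelial cells, 0.085% for Kmt2d KO there and 0.17% for Kmt2d KO in macrophages. The effect of Kmt2c KO on Cxcl10 was larger in endothelial cells than in tumour cells by 4.89 ± 1.22 on the log2 scale (adjusted p = 0.0217). That on Ccl2 was larger by 2.94 ± 0.61 (adjusted p = 0.00426). The effect of Kmt2d KO on Cxcl10 was larger in endothelial cells by 5.66 ± 1.18 (adjusted p = 0.0460). The effect of Kmt2d KO on Ccl7 was larger in macrophages than in tumour cells by 1.91 ± 0.39 (adjusted p = 0.0231). Both Cxcl10 values set KO libraries against 2 UMIs in WT endothelial cells. A single endothelial cell held most Ccl2 UMIs of Kmt2c KO library 2. Single macrophages held a large part of the Ccl7 UMIs in Kmt2d KO libraries 1 and 2. The remaining Kmt2d KO library was the lowest of all libraries for macrophage Ccl7. Each of the 4 lost its call when a single library was left out: Ccl2 without Kmt2c KO library 2 (adjusted p = 0.132), Cxcl10 in either KO without any 1 WT library among others (0.0549 to 0.389), and Ccl7 without Kmt2d KO library 1 or 2 or any 1 WT library (0.0883 to 0.220).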

How the results depend on the processing

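No paired analysis was possible because the libraries carry no replicate numbers of the labels, and same-numbered libraries share only a number. The main moves in counts of called members were as follows. In tumour cells, Kmt2c KO against WT gave 5 of 9, 4 with DESeq2, 3 with all cells of tumour clusters, 3 with thinned cells, and 0 to 7 without 1 library (0 without WT library 1 or 2). Cxcl1 was added there without the low-count filter. Kmt2d KO against WT gave 1, and 2 without the low-count filter. Between the KO groups it gave 0, 1 with DESeq2, 1 without the filter, and 0 to 6 without 1 library (6 without Kmt2d KO library 2). In endothelial cells, Kmt2c KO against WT gave 3, 2 with DESeq2, 5 without the filter and 2 to 3 without 1 library, and Cxcl10 was lost with 1 marker more. Kmt2d KO against WT gave 0, 4 without the filter and 0 to 2 without 1 library, and the KO groups differed in 0, 3 without the filter and 0 to 4 without 1 library. In macrophages, Kmt2c KO against WT gave 3, 1 with DESeq2, 6 without the filter, 1 with 1 marker more, 0 without the 5% deepest cells, and 0 to 4 without 1 library. Kmt2d KO against WT gave 0, 3 without the filter and 0 to 1 without 1 library, and the KO groups 0, 2 and 0 to 2. In fibroblasts the KO groups gave 0, 2 without the filter, 1 without the highest cell of each member, 2 without the deepest cells and 0 to 3 without 1 library, where a Kmt2d KO arm of 1 library was assumed to vary like the other groups. In T cells, Kmt2c KO against WT gave 0, 1 without the filter and 0 to 1 without 1 library, and the KO groups 0 and 2. Without 1 library, the shares of all genes called moved too. In tumour cells they were 8.52 to 28.4% for Kmt2c KO against WT. For Kmt2d KO against WT they were 0.717 to 5.0%, and between the KO groups 0 to 18.6%. In the same order, endothelial cells gave 1.66 to 12.3%, 0 to 1.35% and 0 to 5.25%. Macrophages gave 2.04 to 11.2%, 0 to 0.0476% and 0 to 5.64%. The cause of these moves was not tested. Among sources, T cells gave 1 higher member, 2 in Kmt2c KO libraries alone and 1 to 2 without 1 library. Endothelial cells gave 3 higher members, 2 to 3 without 1 library, and 5 lower, 3 when thinned. Fibroblasts gave 7 higher members, 4 when gated without clusters, and 2 lower, 1 in Kmt2c KO libraries alone, 1 when gated without clusters and 1 when thinned. Macrophages gave 3 lower, 1 when thinned. Endothelial Cxcl10 against tumour cells reversed in WT libraries alone (log2 fold change of -3.54). Differences between classes numbered 2 for Kmt2c KO in endothelial cells (1 to 2 without 1 library), 1 for Kmt2d KO there (0 to 1), 0 for Kmt2c KO in macrophages (0 to 1) and 1 for Kmt2d KO there (0 to 2). Members found in a higher share of tumour cells in every Kmt2c KO than every WT library numbered 2, and 4 when thinned.

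Few cells and UMIs limit several values. WT libraries held 335 to 853 tumour cells, 32 to 70 macrophages and 2 endothelial Cxcl10 UMIs in all. Without the low-count filter more members were called in every stromal class. That fit gave endothelial Cxcl9 an adjusted p of 1.86e-45 in Kmt2d KO against WT, although the libraries of these groups overlapped. Its p-values do not follow the spread between tumours, so its calls add no weight. Gates kept strict subsets, and the cells outside them were not tested. The fits without cluster 5, without shallow clusters and without the highest cell, and the joint fit over classes, were chosen after the data had been seen. Fits without the highest cell took only the gene's own UMIs of that cell from each library, which weighs most on libraries with few UMIs. No fit compared WT with KO fibroblasts, since WT kept 1 library.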

Other observations

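Dendritic cells and mural cells were gated only to keep them apart, and 6 and 5 libraries kept at least 10 of them. Ccl5 in dendritic cells was at 3177 and 2400 CPM in libraries 2 and 3 of Kmt2c KO, at 7103 and 1049 in Kmt2d KO libraries 1 and 3 and at 1152 and 4528 in WT libraries 1 and 2. Its mean of 3235 ± 2300 (n = 6) was the highest of the 7 classes, with groups that overlapped. Single cells held 188 of 317 UMIs in Kmt2d KO library 1 (3098 CPM without it), 49 of 60 in WT library 1 (229) and 92 of 151 in Kmt2c KO library 3 (991). Cxcl16 averaged 483 ± 123 CPM there, within the spread of macrophages, and Cxcl12 was at 0 in all 6 libraries.

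Mural Cxcl9 was 1071, 1512 and 1433 CPM in Kmt2c KO and 182 and 67.2 CPM in WT libraries 1 and 2, groups that did not overlap. Cxcl10 was at 459, 159 and 123 CPM against 0 and 100.8. These cells wrap the vessels whose endothelium had the highest mean Cxcl9 level, and neither difference was tested.

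Between the KO groups, the macrophage chemokines Ccl6 (log2 fold change of 1.38, adjusted p = 0.0362) and Ccl9 (1.64, adjusted p = 0.0113) were higher in Kmt2d KO. In fibroblasts Cxcl14 was lower (-2.94, adjusted p = 0.00434) and the neutrophil ligand Cxcl2 higher (7.33, adjusted p = 0.0355) in Kmt2d KO. In T cells Ccl4 was lower in Kmt2d KO than in Kmt2c KO (-4.49, adjusted p = 0.00215). Macrophage markers in the T cell sums were at 81.9 to 188 CPM in Kmt2c KO and 0 to 55.8 in Kmt2d KO, and their part in this difference was not tested.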
